A study of Mus musculus with 12 samples.

Results

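Livers of HFHSD (high-fat high-sugar diet) fed mice were compared with livers of NCD (normal chow diet) fed mice, neither group given curcumin (CUR). The comparison used 6 of the 12 liver libraries of the study, 3 from HFHSD mice and 3 from NCD mice, and its members were the 10453 of 23997 genes whose mean over these 6 libraries was at least 1 FPKM (fragments per kilobase of transcript, scaled to the mapped fragments of the library). All mice were wild type, aged male C57BL/6 animals, and RNA was taken from 1 lobe (the left lateral one). The labels give an age of 99 weeks for HFHSD 1, HFHSD 2, HFHSD 3, NCD 1 and NCD 2 and of 107 weeks for NCD 3, and likewise of 107 weeks for NCD+CUR 3 and 99 weeks for the other 5 mice given CUR. The design text of the series gives 83 to 91 weeks for all groups, and whether the ages are those at the start or at the end of the diets was not settled. The other 6 libraries, 3 from HFHSD+CUR and 3 from NCD+CUR mice, entered the same model and served as a second diet comparison in different mice.

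A diet rich in fat and sugar brings fatty acids and glucose to the liver together. Hepatocytes answer such a load by taking up fatty acids, making and storing triglyceride, exporting lipoproteins and adjusting bile acid and glucose output, and liver steatosis is often accompanied by changes in endothelial cells, macrophages and stellate cells. The deposited values say how much RNA of each gene the whole lobe held, relative to all RNA, and not in which cell it was.

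Values were taken as log2(FPKM + 0.1), so that fold changes of genes with low FPKM are understated, and rises and falls in HFHSD are those with a Benjamini-Hochberg adjusted p of limma under 0.1. Between 10192 and 10483 genes reached 1 FPKM in each of the 6 libraries, and correlations between libraries were 0.963 to 0.983 within a diet and 0.955 to 0.979 between diets. On the first principal component, which held 43.5% of the variance, the HFHSD libraries scored -18.5, -18.2 and -23.4, and the NCD libraries 27.3, 36.6 and -3.75, so that NCD 3 lay between the other NCD libraries and the HFHSD libraries. NCD 3 also had 1461 FPKM of Rn45s, the precursor of ribosomal RNA, against 83.7 and 122 FPKM in NCD 1 and NCD 2. In mice given CUR the values of Rn45s were 16271, 129 and 3339 FPKM in HFHSD+CUR livers, against 109.5, 949.9 and 1714 FPKM in NCD+CUR livers, so that HFHSD+CUR 1 stood farthest apart. The authors' alignment summary lists more reads and a higher mapping rate for HFHSD 3 and NCD 3 than for replicates 1 and 2 of either diet. The part of depth in the results was not tested. The age of NCD 3 and its other differences cannot be told apart, and counts over all genes and in some lists are given with and without it. Hepatocyte marker genes summed to 75090 to 92715 FPKM in HFHSD livers and 76578 to 89514 FPKM in NCD livers, and 11 of 12 genes of pancreatic acinar cells were under the 1 FPKM minimum.

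Of the 10453 genes, 293 (2.80%) rose and 200 (1.91%) fell in HFHSD livers, or 4.72% in all. At an unadjusted p under 0.05 the counts were 1080 higher and 866 lower, or 18.6% of the genes. The 3 HFHSD values and the 3 NCD values did not overlap for 22.7% of all genes and for 489 of the 493 that changed. The median log2 fold change was 0.71 over genes that rose, -0.76 over genes that fell and 0.03 over all genes tested, and 65 rises and 57 falls reached 2-fold. With equal medians or quantile normalization the counts were 254 and 264 higher against 273 and 272 lower, so the excess of rises over falls depended on the scaling.

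The number of calls depended on single libraries. It was 129 higher and 60 lower without HFHSD 1, 69 and 33 without HFHSD 2, 131 and 57 without HFHSD 3, 48 and 12 without NCD 1, 64 and 19 without NCD 2, and 946 and 784 without NCD 3. All of the 493 genes that were still tested in a setting kept their direction in each of these settings. For the 489 whose groups did not overlap, leaving out 1 library could not change the direction. Of the 93 changed genes named, 14 stayed under an adjusted p of 0.1 with each of the 6 libraries left out in turn, and beside the others the highest adjusted p of these settings is given for the main examples. An exact two-sided permutation test with 3 mice per diet reaches 0.1 at best, and limma was used because it shares information on the spread across genes.

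**Figure D1:**
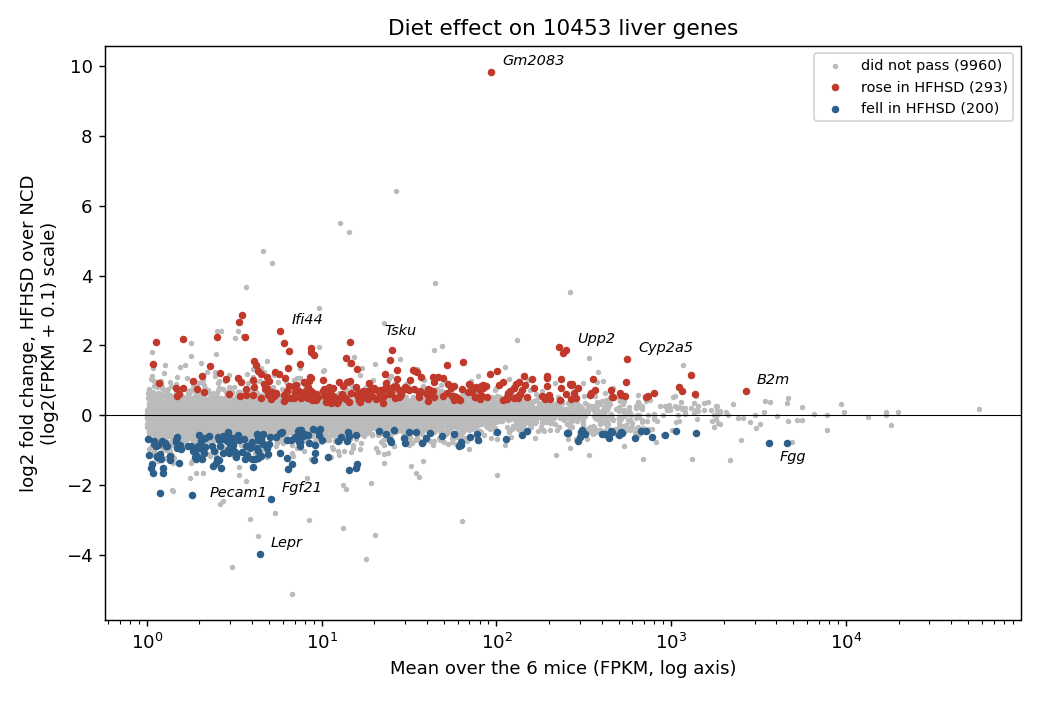
Log2 fold change of each tested gene, HFHSD over NCD, against its mean over the 6 mice in FPKM on a log axis. Red points are the 293 genes that rose, blue points the 200 that fell and grey points the 9960 that did not pass. Most changes were under 2-fold, and Gm2083 and Lepr lie farthest from 0 among the changed genes.

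The smallest adjusted p belonged to Tsku (tsukushi, a secreted proteoglycan made by hepatocytes, chr7:98350668-98361390 in GRCm38.p6). It had 33.7, 52.6 and 32.5 FPKM in HFHSD livers, against 13.4, 8.41 and 9.94 FPKM in NCD livers. The lowest HFHSD value was above the highest NCD value by more than either group's SD, and the log2 fold change was 1.89 ± 0.20 (SE, limma adjusted p = 0.00305, at most 0.0163 with any 1 library left out). Upp2, a uridine phosphorylase that breaks down uridine, had 355, 409 and 394 FPKM in HFHSD livers, against 95.9, 67.6 and 181 FPKM in NCD livers, a log2 fold change of 1.87 ± 0.35 (SE, limma adjusted p = 0.0321, 0.131 without NCD 1). Serpinb1a, an inhibitor of neutrophil proteases that is also secreted by hepatocytes, had 16.1, 12.1 and 12.2 FPKM in HFHSD livers, against 3.85, 2.73 and 4.90 FPKM in NCD livers, a log2 fold change of 1.81 ± 0.32 (SE, limma adjusted p = 0.0245, at most 0.09998 with any 1 library left out). Sult5a1, a cytosolic sulfotransferase, had 12.5, 13.7 and 15.2 FPKM in HFHSD livers, against 3.65, 4.91 and 2.52 FPKM in NCD livers, a log2 fold change of 1.92 ± 0.35 (SE, limma adjusted p = 0.0288, 0.115 without NCD 1). In each of these genes all HFHSD mice were above all NCD mice, which the naming rule required of the largest rises. Groups did not overlap in 22.7% of all genes tested. The largest ratio was that of Gm2083, which belongs to the major urinary protein family. It had 32.8, 232 and 297 FPKM in HFHSD livers, against 0.00237, 0.202 and 0 FPKM in NCD livers. Its log2 fold change of 9.82 rests on the pseudocount (6.96 with a pseudocount of 1 and 12.11 with 0.01), and its near-identical neighbors can share its reads.

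Falls were led by Fgf21 and Lepr. Fgf21, the fasting hormone of the liver (chr7:45613890-45615490), had 0.895, 2.82 and 1.35 FPKM in HFHSD livers, against 7.01, 11.8 and 7.01 FPKM in NCD livers. Every HFHSD mouse was below every NCD mouse, and the log2 fold change was -2.39 ± 0.64 (SE, limma adjusted p = 0.0971, 0.309 without NCD 2). Lepr, the leptin receptor (chr4:101717137-101815352), had 0.485, 0.275 and 0.406 FPKM in HFHSD livers, against 12.5, 9.70 and 3.33 FPKM in NCD livers, a log2 fold change of -3.96 ± 0.54 (SE, limma adjusted p = 0.0195, at most 0.0793 with any 1 library left out). Lepr lies outside the naming rule, since its mean was under 5 FPKM, and was chosen after its values were seen. It reached the minimum of 1 FPKM only through the NCD livers. NCD 3 was the NCD mouse nearest to the HFHSD mice, and the ranges were still apart. Prss8 (prostasin, a membrane serine protease) had 6.89, 4.67 and 8.28 FPKM in HFHSD livers, against 13.0, 17.8 and 14.3 FPKM in NCD livers, a log2 fold change of -1.20 ± 0.19 (SE, limma adjusted p = 0.0195, at most 0.0795 with any 1 library left out), with all HFHSD mice below all NCD mice. The rule for the largest falls took only genes without overlap, Fgf21 and Prss8 among them. The gene 3110082I17Rik fell by 1.54 on the log2 scale and stayed under the threshold with each library left out. Mettl1, the tRNA m7G methyltransferase, fell by 1.27, Mustn1, a small nuclear protein of the musculoskeletal system, by 1.20, Tinagl1, a matrix protein, by 1.39, and Gimap6, a GTPase of lymphocytes and endothelial cells, by 1.07 on the log2 scale, with highest adjusted p in limma of 0.273, 0.248, 0.130 and 0.160, all without NCD 2.

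**Figure D2:**
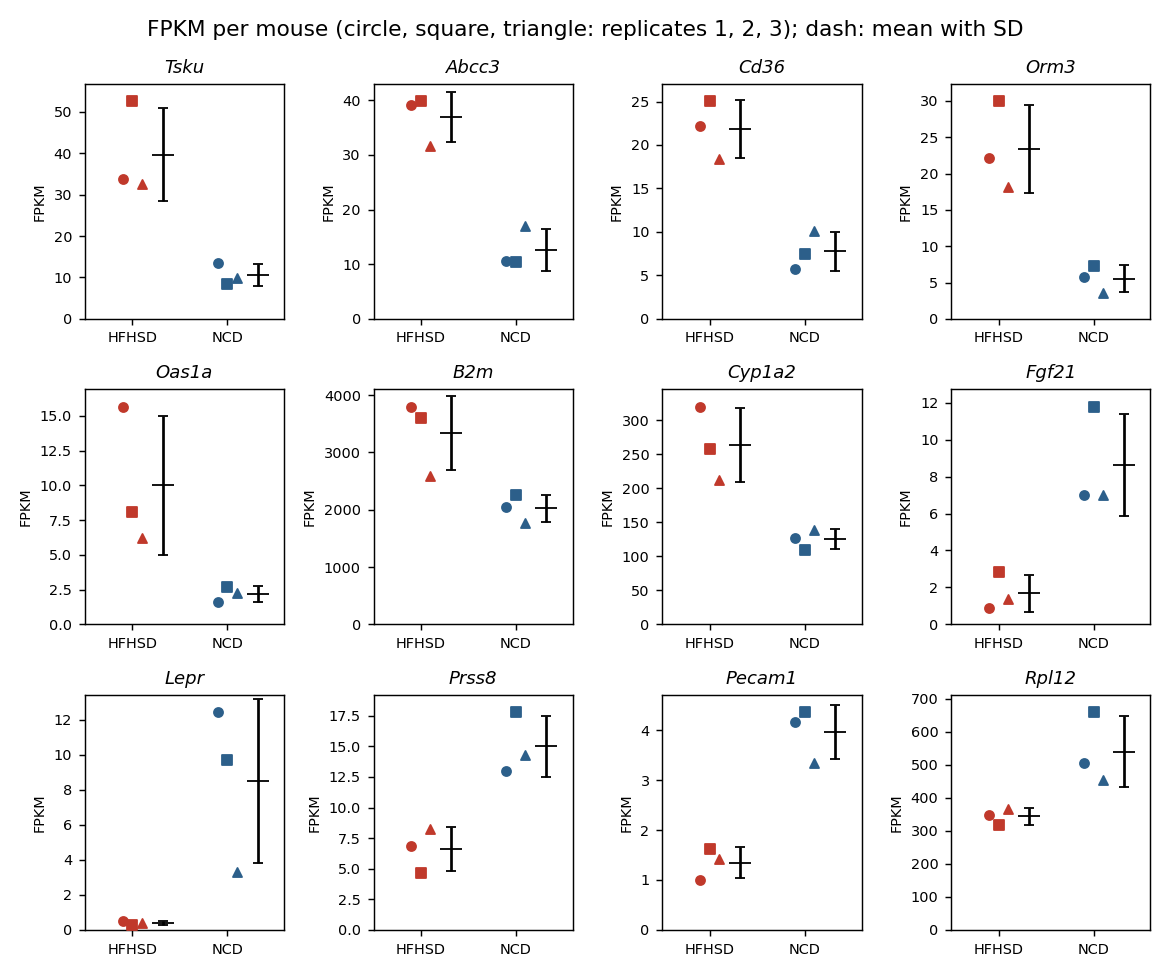
FPKM of 12 genes in each HFHSD mouse (red, left) and each NCD mouse (blue, right), on linear axes from 0, with circles, squares and triangles for replicates 1, 2 and 3 and a dash with bars for the mean and SD (n = 3). The groups do not overlap in any of the 12 genes, as in 489 of the 493 genes that changed. NCD 3 is the NCD mouse closest to HFHSD for Abcc3, Cd36, Cyp1a2, Lepr, Pecam1 and Rpl12, and about level with NCD 1 for Fgf21.

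Genes of fatty acid uptake and storage were examined next. Cd36, the membrane protein that takes up long-chain fatty acids (chr5:17781690-17888959), had 22.1, 25.1 and 18.4 FPKM in HFHSD livers, against 5.70, 7.49 and 10.1 FPKM in NCD livers. The HFHSD mice were all above the NCD mice, with a log2 fold change of 1.51 ± 0.26 (SE, limma adjusted p = 0.0211, at most 0.0966 with any 1 library left out), and Cd36 was the 1 gene of 22 tested lipid droplet and uptake genes that passed. Pparg, the nuclear receptor that drives fat storage, had 5.43, 9.77 and 6.85 FPKM in HFHSD livers, against 2.19, 3.96 and 5.47 FPKM in NCD livers (limma adjusted p = 0.139), and the groups overlapped by a narrow margin. Cidec, a lipid droplet protein of steatotic liver, had 7.12, 28.0 and 7.05 FPKM in HFHSD livers, against 14.3, 18.0 and 5.14 FPKM in NCD livers, with overlapping groups (limma adjusted p = 0.987). The list had a median log2 fold change of 0.12, against 0.03 for all genes tested. Gpihbp1, which carries lipoprotein lipase on the capillary endothelium, had 8.07, 11.0 and 7.30 FPKM in HFHSD livers, against 21.5, 29.3 and 19.0 FPKM in NCD livers, a log2 fold change of -1.39 ± 0.35 (SE, limma adjusted p = 0.0735, 0.252 without NCD 2). Of 20 apolipoprotein and lipoprotein genes, 1 rose and 19 did not pass, while 4.72% of all genes tested changed.

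Lipogenesis and cholesterol synthesis did not give a call in the main fit. None of 19 lipogenic genes and none of 25 genes of cholesterol synthesis passed in limma (0 and 1 at an unadjusted p under 0.05), with medians of 0.12 and -0.05, while 4.72% of all genes changed. Fasn (fatty acid synthase) had 58.1, 34.0 and 70.0 FPKM in HFHSD livers, against 39.6, 53.8 and 135 FPKM in NCD livers (limma adjusted p = 0.752). Scd1, the desaturase that makes monounsaturated fatty acids, had 1590, 1291 and 2231 FPKM in HFHSD livers, against 1107, 1916 and 2721 FPKM in NCD livers (limma adjusted p = 0.876). Both varied among the NCD mice more than between the diets, with NCD 3 highest, and both were higher in HFHSD than in NCD when NCD 3 was left out (0.16 and 0.19 on the log2 scale, not past the threshold). Srebf1, the transcription factor of lipogenic genes, had 115, 90.7 and 111 FPKM in HFHSD livers, against 95.5, 89.0 and 124 FPKM in NCD livers (limma adjusted p = 0.932), a log2 fold change of 0.04 whose sign changed with the scaling. Thrsp, a lipogenic gene that responds to carbohydrate, had 567, 404 and 588 FPKM in HFHSD livers, against 158, 214 and 524 FPKM in NCD livers (limma adjusted p = 0.314), with NCD 3 inside the HFHSD range. Over 21 settings Thrsp passed in 3 and Acss2, another lipogenic gene, in 2. Fasn, Scd1 and Srebf1 passed in none of them. Of 25 genes of fatty acid oxidation and ketogenesis, 22 had a higher mean log2 value in HFHSD and 3 a lower one, 0 passed (3 at an unadjusted p under 0.05) and the median was 0.18. Acaa1b, a peroxisomal thiolase, came nearest, with 383, 583 and 359 FPKM in HFHSD livers, against 262, 317 and 301 FPKM in NCD livers (limma adjusted p = 0.109). Among 15 genes induced by PPAR-alpha, 1 fell (Fgf21) and 14 did not pass.

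Few genes of glucose handling passed, while 4.72% of all genes tested changed. Of 14 genes of gluconeogenesis, Pck2, the mitochondrial PEP carboxykinase, fell by 0.56 on the log2 scale (limma adjusted p = 0.0911, 0.292 without NCD 2), and 13 did not pass. Its cytosolic partner Pck1 had 962, 1255 and 1511 FPKM in HFHSD livers, against 609, 1044 and 919 FPKM in NCD livers (limma adjusted p = 0.304). G6pc, the catalytic subunit of glucose-6-phosphatase, had 59.9, 119.6 and 137 FPKM in HFHSD livers, against 34.0, 31.2 and 86.6 FPKM in NCD livers (limma adjusted p = 0.351). The groups overlapped for both. Over 21 settings G6pc passed in 3 and Pck1 in 1. None of 24 genes of glycolysis, fructose and glycogen metabolism and none of 20 genes of insulin signaling passed in limma (3 and 1 at an unadjusted p under 0.05), with medians of 0.10 and 0.16. Insr, the insulin receptor, had 14.4, 15.8 and 17.9 FPKM in HFHSD livers, against 14.4, 12.8 and 17.1 FPKM in NCD livers (limma adjusted p = 0.637). Irs2, the adaptor between the insulin receptor and PI3-kinase, had 2.17, 1.66 and 4.27 FPKM in HFHSD livers, against 1.10, 0.695 and 2.88 FPKM in NCD livers (limma adjusted p = 0.352). Ide, the protease that degrades insulin, had 26.5, 29.9 and 28.7 FPKM in HFHSD livers, against 29.4, 18.8 and 21.7 FPKM in NCD livers (limma adjusted p = 0.384). Irs2 was highest in replicate 3 of both diets, and Ide overlapped through NCD 1. Irs2 passed in 4 of 20 settings with a test, while Insr and Ide passed in 0 of 21. A p that missed the threshold does not show that these levels were equal.

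Among bile acid genes, 2 transporters passed in the main fit. Abcc3, the basolateral exporter of bile acids and glucuronides (chr11:94343295-94393017), had 39.2, 39.9 and 31.7 FPKM in HFHSD livers, against 10.5, 10.3 and 16.9 FPKM in NCD livers, a log2 fold change of 1.58 ± 0.20 (SE, limma adjusted p = 0.0118, at most 0.0631 with any 1 library left out). Slco1b2, which takes up bile acids and drugs from blood, had 266, 315 and 288 FPKM in HFHSD livers, against 157, 117 and 261 FPKM in NCD livers, a log2 fold change of 0.77 ± 0.23 (SE, limma adjusted p = 0.0996, 0.326 without NCD 2). Abcc3 kept its call in all of 21 settings and Slco1b2 in 8 of them. These were the 2 of 21 bile acid genes that passed, against 4.72% of all genes, and 18 of the 21 had a higher value in HFHSD (median 0.28). Cyp7a1, the rate-limiting enzyme of bile acid synthesis, had 53.3, 61.2 and 70.6 FPKM in HFHSD livers, against 16.7, 4.83 and 58.4 FPKM in NCD livers (limma adjusted p = 0.314). NCD 1 and NCD 2 were below all HFHSD mice and NCD 3 was within their range. Cyp7a1 passed in 3 of 21 settings.

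Of 23 tested cytochrome P450 genes of families that oxidize drugs, with their reductase, 7 rose, 0 fell and 16 did not pass, against 2.80% of all genes that rose. The median log2 fold change was 0.51. Their summed level was 9941 to 12367 FPKM in HFHSD livers and 6892 to 8817 FPKM in NCD livers. Cyp2a5, which oxidizes coumarin and nicotine, had 1171, 809 and 552 FPKM in HFHSD livers, against 225, 216 and 384 FPKM in NCD livers, a log2 fold change of 1.60 ± 0.37 (SE, limma adjusted p = 0.0603, 0.218 without NCD 2). Cyp1a2, which oxidizes caffeine, had 320.5, 259 and 212 FPKM in HFHSD livers, against 127, 109 and 139 FPKM in NCD livers, a log2 fold change of 1.06 ± 0.20 (SE, limma adjusted p = 0.0257, 0.115 without NCD 2). Cyp2c50 had 504, 506 and 419 FPKM in HFHSD livers, against 259, 178 and 269.7 FPKM in NCD livers, a log2 fold change of 1.03 ± 0.18 (SE, limma adjusted p = 0.0211, at most 0.0899 with any 1 library left out). All HFHSD mice were above all NCD mice in each of these. Cyp2c37, Cyp2c54 and Cyp2f2 rose by 1.03, 0.95 and 0.73 on the log2 scale, and Por, the reductase that passes electrons to the P450 enzymes, by 0.51. The Cyp2c genes lie in a cluster of close paralogs that can share reads. Alas1, the first enzyme of heme synthesis, lies outside the naming rule and had 328, 484 and 293 FPKM in HFHSD livers, against 85.0, 88.9 and 153 FPKM in NCD livers, a log2 fold change of 1.78 ± 0.31 (SE, limma adjusted p = 0.0241, 0.108 without NCD 1). Of 23 genes of glutathione S-transferases and NRF2 targets, Nqo1, a quinone reductase, rose by 1.06 and Gclm, a subunit of the enzyme that begins glutathione synthesis, by 0.56 on the log2 scale (limma adjusted p = 0.0587 and 0.0958, 0.219 and 0.330 without NCD 2). Nqo1 kept its call in 16 and Gclm in 9 of 21 settings. With any 1 library other than NCD 3 left out, 2 to 5 P450 genes passed (the fewest without NCD 2), and 13 passed without NCD 3.

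Some genes of amino acid breakdown rose in HFHSD livers. Of 30 genes of the urea cycle and amino acid catabolism, 5 rose, 0 fell and 25 did not pass, against 2.80% of all genes that rose, and 28 of the 30 had a higher value in HFHSD (median 0.30). Cth, which makes cysteine by cleaving cystathionine, had 147, 149 and 181 FPKM in HFHSD livers, against 92.4, 71.9 and 114 FPKM in NCD livers, a log2 fold change of 0.80 ± 0.17 (SE, limma adjusted p = 0.0335, 0.138 without NCD 2). Otc, the mitochondrial ornithine transcarbamylase of the urea cycle, had 232, 232 and 222 FPKM in HFHSD livers, against 170.2, 146 and 158 FPKM in NCD livers, a log2 fold change of 0.53 ± 0.13 (SE, limma adjusted p = 0.0547, 0.194 without NCD 2). Hgd, a dioxygenase of tyrosine breakdown, and Kmo, a hydroxylase of the kynurenine pathway, rose by 0.59 and 0.48 on the log2 scale. The list had 0 calls without HFHSD 3, NCD 1 or NCD 2, 2 without HFHSD 1, 1 without HFHSD 2 and 15 without NCD 3.

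Genes of growth hormone signaling were mixed, while 4.72% of all genes tested changed. Cish, a feedback inhibitor that STAT5 induces, had 15.2, 8.21 and 10.2 FPKM in HFHSD livers, against 3.71, 3.60 and 4.30 FPKM in NCD livers, a log2 fold change of 1.47 ± 0.27 (SE, limma adjusted p = 0.0257, 0.115 without NCD 1). Ghr, the growth hormone receptor, rose by 0.57 on the log2 scale (limma adjusted p = 0.0734, 0.259 without NCD 2), and 10 of 12 genes of the axis did not pass. Igf1, the growth factor that this axis induces, had 157, 192 and 172 FPKM in HFHSD livers, against 175, 186 and 143 FPKM in NCD livers (limma adjusted p = 0.878), with overlapping groups. Among 12 genes of male-biased expression, Cyp4a12a, an arachidonic acid hydroxylase, had 47.6, 58.1 and 41.4 FPKM in HFHSD livers, against 15.1, 30.7 and 18.6 FPKM in NCD livers, a log2 fold change of 1.24 ± 0.25 (SE, limma adjusted p = 0.0328, 0.133 without NCD 1), and the list median was -0.08. Only 3 of 10 female-biased genes in the table reached 1 FPKM, and they did not pass. Cyp2b9, the most abundant, had 67.3, 30.0 and 17.2 FPKM in HFHSD livers, against 4.46, 2.00 and 14.9 FPKM in NCD livers (limma adjusted p = 0.186), and Cyp2b13 had 15.5, 2.79 and 2.50 FPKM in HFHSD livers, against 0.318, 0.0286 and 0.951 FPKM in NCD livers (limma adjusted p = 0.114). HFHSD 1 was the highest for both, and the groups did not overlap. Mup19, a major urinary protein, had 146, 439 and 519 FPKM in HFHSD livers, against 57.3, 95.9 and 104 FPKM in NCD livers, a log2 fold change of 1.96 ± 0.48 (SE, limma adjusted p = 0.0757, 0.230 without NCD 1), and the other 13 tested genes of the Mup list, which does not hold Gm2083, did not pass. The Mup list had a median of 1.47, with 12 of its 14 tested genes higher in HFHSD. The summed Mup level was 16988 to 25294 FPKM in HFHSD livers and 16007 to 20214 FPKM in NCD livers, and these genes are so alike that reads can be split among them.

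**Figure D3:**
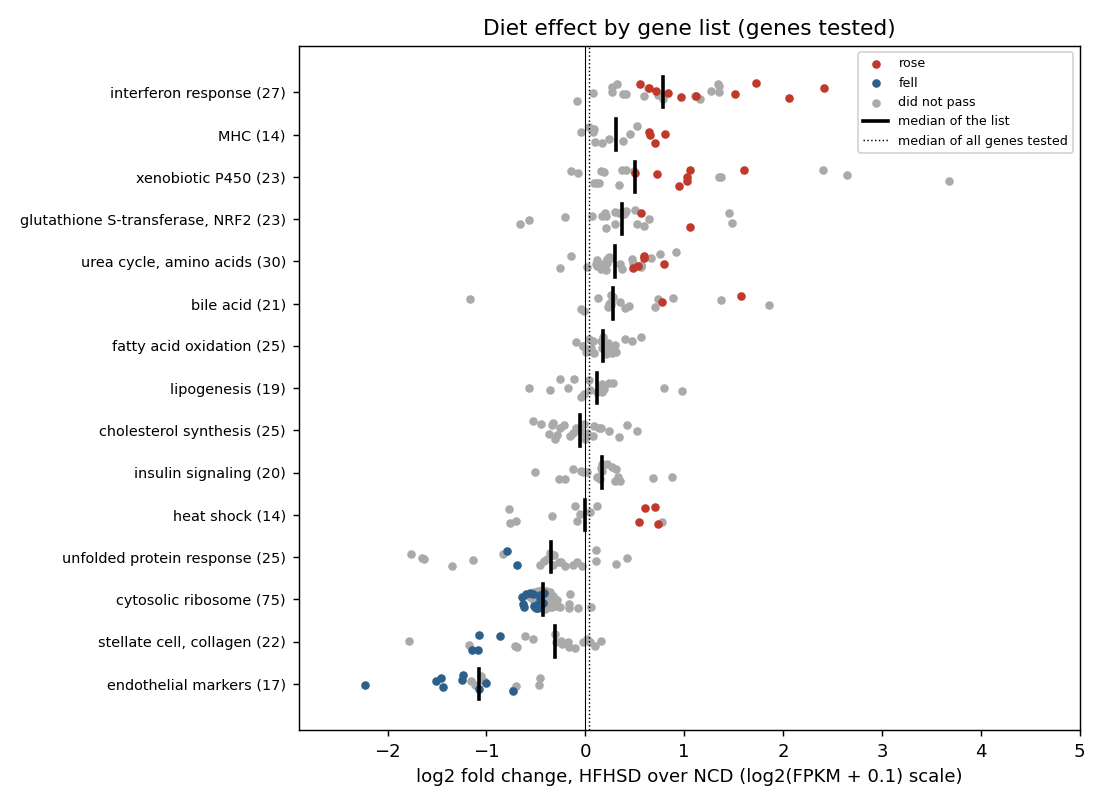
Log2 fold change, HFHSD over NCD, of each tested gene in 15 lists, with the number tested in parentheses. Red points rose, blue points fell, grey points did not pass, black bars are list medians and the dotted line is the median of all genes tested (0.03). Among these 15 of the 41 lists, the interferon list sits highest, with a median of 0.78, and the endothelial list lowest, at -1.07. Higher medians among lists not shown were those of major urinary proteins (1.47, 14 tested), female-biased genes (2.65, 3 tested) and adipocyte genes (5.49, 1 tested).

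Interferon response genes rose in part in HFHSD livers. These genes are switched on in most cell types when interferon activates STAT proteins and IRF factors, and many code for antiviral enzymes and GTPases. Of 27 genes, 10 rose, 0 fell and 17 did not pass, against 2.80% of all genes that rose, 26 had a higher value in HFHSD and the median log2 fold change was 0.78. The groups did not overlap in 18 of the 27, against 22.7% of all genes. The summed level was 1643, 1275 and 993 FPKM in the HFHSD livers, against 653, 732 and 728 FPKM in the NCD livers, with HFHSD 1 highest. Oas1a, which makes the second messenger that activates RNase L, had 15.7, 8.09 and 6.21 FPKM in HFHSD livers, against 1.61, 2.70 and 2.24 FPKM in NCD livers, a log2 fold change of 2.06 ± 0.45 (SE, limma adjusted p = 0.0502, 0.178 without NCD 1). Ifi44 had 17.1, 8.85 and 4.29 FPKM in HFHSD livers, against 1.46, 1.76 and 1.44 FPKM in NCD livers, a log2 fold change of 2.41 ± 0.58 (SE, limma adjusted p = 0.0696, 0.210 without NCD 2). Irf7, the transcription factor that amplifies interferon production, had 131, 102 and 57.9 FPKM in HFHSD livers, against 34.6, 31.1 and 30.9 FPKM in NCD livers, a log2 fold change of 1.51 ± 0.36 (SE, limma adjusted p = 0.0615, 0.209 without NCD 2). HFHSD 1 was the highest mouse for each of the 3, and HFHSD 3 the lowest of its group.

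Of the list, 7 more genes rose. Ifi27 rose by 1.12, Gbp3, a guanylate-binding GTPase, by 1.73, and the immunity-related GTPases Igtp and Iigp1 by 0.83 and 0.55 on the log2 scale. Psmb8 and Psmb9, catalytic subunits of the immunoproteasome, rose by 0.64 and 0.71. Gbp11, a relative of Gbp3 outside the list, had 17.5, 8.32 and 5.57 FPKM in HFHSD livers, against 2.50, 2.74 and 2.35 FPKM in NCD livers, a log2 fold change of 1.85 ± 0.40 (SE, limma adjusted p = 0.0502, 0.167 without NCD 2). The number of the 27 that passed was 0 without HFHSD 1 or NCD 1, 1 without NCD 2, 2 without HFHSD 2 and 10 without HFHSD 3 or NCD 3, while the median ran between 0.70 and 1.11.

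Promoters (250 bases before to 50 after the start of transcription, RefSeq, GRCm38.p6) were at hand for 19 of the 27 interferon genes and for 7 of the 10 that rose. The interferon-stimulated response element was searched as GAAANNGAAA on both strands, a motif picked after the results were known. It was found in 11 of the 19 (57.9%) and in 3 of the 7 (42.9%), against 3.44% of all 32851 promoters. A gene counted if any of its promoters held the motif, while shares of all are of single promoters, so the 2 measures differ. The motif was not more frequent among the genes that rose than over the list. Since the list was made of interferon response genes, its share was no test of the motif. The promoters of the 3 genes that rose and hold the motif, and of B2m, are shown as examples picked for holding it, with its letters in capitals:
Gbp3, chr3:142559794-142560093, plus strand: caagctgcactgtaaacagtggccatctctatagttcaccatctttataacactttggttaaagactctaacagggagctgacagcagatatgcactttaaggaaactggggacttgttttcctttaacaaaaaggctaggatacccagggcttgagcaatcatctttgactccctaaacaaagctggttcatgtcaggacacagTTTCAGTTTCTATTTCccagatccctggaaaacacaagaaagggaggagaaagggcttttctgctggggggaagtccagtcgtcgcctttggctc
Oas1a, chr5:120907476-120907775, minus strand: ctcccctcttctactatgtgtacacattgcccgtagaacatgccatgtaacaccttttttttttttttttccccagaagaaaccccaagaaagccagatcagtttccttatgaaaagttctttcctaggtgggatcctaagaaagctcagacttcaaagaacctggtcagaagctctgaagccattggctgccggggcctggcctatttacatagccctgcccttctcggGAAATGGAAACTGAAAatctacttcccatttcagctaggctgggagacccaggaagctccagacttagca
Igtp, chr11:58199306-58199605, plus strand: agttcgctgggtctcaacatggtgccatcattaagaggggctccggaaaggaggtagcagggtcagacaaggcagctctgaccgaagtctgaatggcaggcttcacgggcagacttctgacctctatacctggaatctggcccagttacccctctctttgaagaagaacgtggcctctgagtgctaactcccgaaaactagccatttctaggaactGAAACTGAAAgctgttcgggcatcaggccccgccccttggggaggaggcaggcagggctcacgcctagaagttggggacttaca
B2m, chr2:122147437-122147736, plus strand: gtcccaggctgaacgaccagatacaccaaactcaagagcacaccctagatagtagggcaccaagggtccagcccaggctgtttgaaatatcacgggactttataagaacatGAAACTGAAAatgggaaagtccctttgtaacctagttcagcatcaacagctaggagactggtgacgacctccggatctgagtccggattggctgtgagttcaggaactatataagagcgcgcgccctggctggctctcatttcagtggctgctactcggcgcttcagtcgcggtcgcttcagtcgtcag
Gbp3 and Oas1a each hold 2 matches that overlap each other, and Igtp and B2m hold 1 each. The sterol regulatory element and the DR1 element (AGGTCA repeated in the same direction with 1 base between), searched on both strands, were in none of the 19, against 0.0913% and 0.0396% of all promoters, and CCAAT was in 7 of the 19, against 37.4% of all. No CCAAT base fell within the capitals of the 4 printed promoters. A match is a run of letters and not a measured site.

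Genes of MHC class I, which presents peptides to T cells, were higher in HFHSD livers as well. Of 14 tested MHC genes, 4 rose, 0 fell and 10 did not pass, against 2.80% of all genes that rose, with a median of 0.31. B2m, the light chain of MHC class I, had 3801, 3601 and 2594 FPKM in HFHSD livers, against 2056, 2249 and 1773 FPKM in NCD livers, a log2 fold change of 0.70 ± 0.15 (SE, limma adjusted p = 0.0388, 0.147 without HFHSD 2). H2-K1, a class I heavy chain, had 1478, 1337 and 1406 FPKM in HFHSD livers, against 667, 854 and 913 FPKM in NCD livers, a log2 fold change of 0.81 ± 0.17 (SE, limma adjusted p = 0.0328, 0.149 without NCD 1). H2-D1 and H2-T23, other class I genes, rose by 0.65 and 0.64 on the log2 scale, and these heavy chains are alike enough to share reads. The class II genes tested did not pass. The ISRE run was in 2 of the 11 MHC genes with a promoter and CCAAT in all 11. With 1 library left out, 0 to 5 of the 14 passed, with 0 without NCD 1.

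Few leukocyte markers passed, while 4.72% of all genes tested changed. Of 18 tested macrophage and Kupffer cell genes, 1 rose and 17 did not pass, with a median of -0.02, and their sum was 482, 272 and 387 FPKM in HFHSD livers, against 391, 521 and 266 FPKM in NCD livers. The gene was Mpeg1, a pore-forming protein of macrophages that interferon also induces, with 35.0, 24.0 and 32.6 FPKM in HFHSD livers, against 16.4, 19.0 and 13.0 FPKM in NCD livers, a log2 fold change of 0.91 ± 0.22 (SE, limma adjusted p = 0.0549, 0.167 without NCD 1). None of the 5 T and NK cell, 4 B and plasma cell and 3 neutrophil genes that reached 1 FPKM passed in limma (1 of the 12, a B cell gene, at an unadjusted p under 0.05). In whole liver, fewer cells of a type and less RNA per cell cannot be told apart.

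Endothelial genes were lower in HFHSD livers. Liver sinusoids are lined by endothelial cells that scavenge proteins from blood and carry receptors for vascular growth factors. Of 17 tested markers, 9 fell, 0 rose and 8 did not pass, against 1.91% of all genes that fell. All 17 had a lower value in HFHSD with no overlap between the groups, against 10.1% of all genes tested. The median log2 fold change was -1.07. The summed level was 66.5, 91.5 and 64.5 FPKM in the HFHSD livers, against 138, 151 and 136 FPKM in the NCD livers. Pecam1 (CD31, an adhesion molecule between endothelial cells, chr11:106654213-106715281) had 1.00, 1.62 and 1.41 FPKM in HFHSD livers, against 4.17, 4.36 and 3.34 FPKM in NCD livers, a log2 fold change of -1.51 ± 0.31 (SE, limma adjusted p = 0.0335, 0.143 without NCD 2). Kdr, the receptor of VEGF, had 1.06, 1.41 and 1.26 FPKM in HFHSD livers, against 3.25, 3.09 and 4.33 FPKM in NCD livers, a log2 fold change of -1.44 ± 0.27 (SE, limma adjusted p = 0.0245, at most 0.0899 with any 1 library left out). Lyve1, a hyaluronan receptor of sinusoidal cells, had 0.376, 0.492 and 0.135 FPKM in HFHSD livers, against 2.07, 3.23 and 0.836 FPKM in NCD livers, a log2 fold change of -2.22 ± 0.54 (SE, limma adjusted p = 0.0635, 0.202 without NCD 1). Lyve1 was tested only because its NCD values lifted the mean to 1 FPKM, so it could enter only as a lower gene. Ptprb, a phosphatase of vascular junctions, Oit3, a liver zona pellucida domain protein, and Stab1, a scavenger receptor, fell by 1.24, 1.46 and 1.00 on the log2 scale. Cdh5, the cadherin of endothelial junctions, Emcn, a sialomucin, and Eng, a TGF-beta coreceptor, fell by 1.07, 1.25 and 0.73. Aqp1, a water channel of endothelium and bile duct, had 4.84, 10.9 and 6.98 FPKM in HFHSD livers, against 20.3, 21.4 and 21.9 FPKM in NCD livers, a log2 fold change of -1.55 ± 0.41 (SE, limma adjusted p = 0.0876, 0.254 without NCD 2). Between 1 and 3 of the 17 passed with HFHSD 1, HFHSD 2, HFHSD 3, NCD 1 or NCD 2 left out and 10 without NCD 3, while the median stayed between -1.22 and -0.97. With a pseudocount of 1 the median was -0.83 and 9 fell. Among members with a mean of at least 5 FPKM it was -0.88 and 1 fell, so the size and count rest in part on genes of low FPKM. The part of endothelial RNA in the falls of Gpihbp1, Gimap6 and Aqp1 was not tested.

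Some stellate cell and collagen genes fell. Of 22 stellate cell and collagen genes, 4 fell, 0 rose and 18 did not pass, against 1.91% of all genes that fell, with a median of -0.31. Lrat, which stores retinol as ester in stellate cells, had 2.35, 2.08 and 1.52 FPKM in HFHSD livers, against 4.98, 4.87 and 3.58 FPKM in NCD livers, a log2 fold change of -1.14 ± 0.22 (SE, limma adjusted p = 0.0269, 0.126 without NCD 1). Col4a1 and Col4a2, the paired chains of basement membrane collagen, fell by 1.09 and 1.08, and Des, the filament protein desmin, by 0.86 on the log2 scale, and none of the list passed without NCD 1 or NCD 2. The fibrillar collagens Col1a1, Col1a2 and Col3a1 were tested and did not pass. All 4 tested bile duct genes were lower in HFHSD without a call, among them Epcam with 0.789, 0.585 and 0.758 FPKM in HFHSD livers, against 1.98, 3.35 and 0.875 FPKM in NCD livers (limma adjusted p = 0.146). NCD 2 was the highest and the HFHSD mice were close to NCD 3. Of the adipocyte genes, Lep and Plin1 were listed at 0 in all 6 libraries, and Cfd, the protease adipsin, had 1.38, 57.4 and 16.5 FPKM in HFHSD livers, against 0, 0.131 and 0.569 FPKM in NCD livers (limma adjusted p = 0.102).

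**Figure D4:**
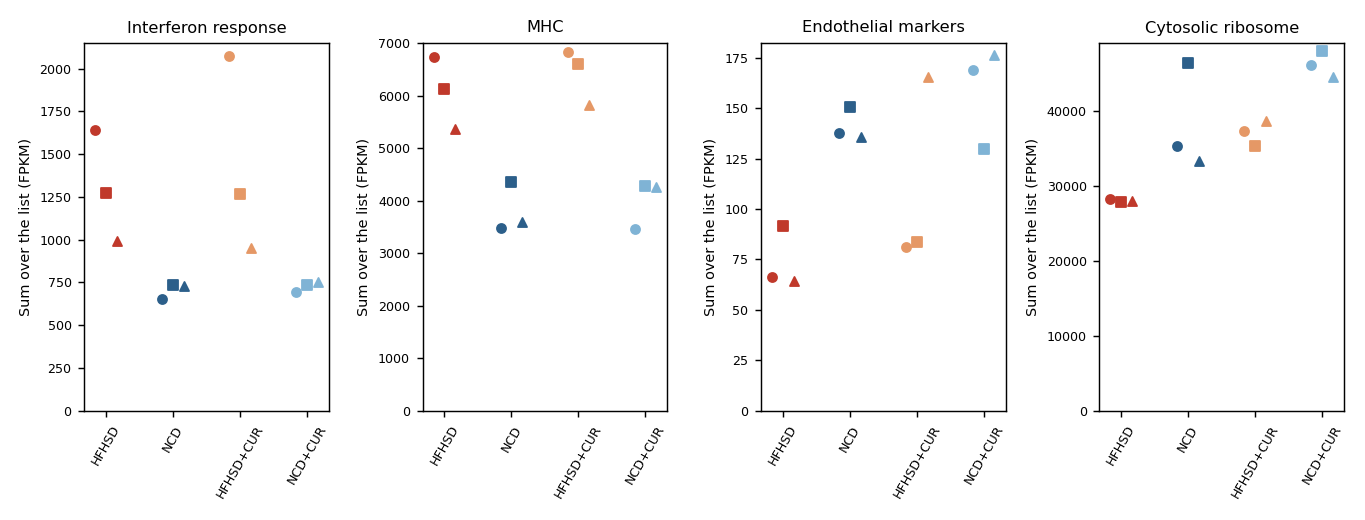
Summed FPKM of 4 gene lists in each mouse, in the groups HFHSD, NCD, HFHSD+CUR and NCD+CUR, on linear axes from 0, with circles, squares and triangles for replicates 1, 2 and 3. HFHSD lies above NCD for the interferon and MHC lists and below it for the endothelial and ribosomal lists without overlap, and HFHSD+CUR 3 lies among the NCD+CUR mice for the endothelial list.

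Many genes of cytosolic ribosomal proteins had lower values in HFHSD livers. Of 75 such genes, 17 fell, 0 rose and 58 did not pass, against 1.91% of all genes that fell, 74 had a lower value in HFHSD and the median log2 fold change was -0.43. Their sum was 28314, 27802 and 27957 FPKM in HFHSD livers, nearly equal, against 35371, 46456 and 33410 FPKM in NCD livers. Rpl12 had 348, 317 and 366 FPKM in HFHSD livers, against 507, 660.2 and 454 FPKM in NCD livers, a log2 fold change of -0.64 ± 0.14 (SE, limma adjusted p = 0.0433, 0.153 without HFHSD 2). Rps3 had 119.8, 125 and 135 FPKM in HFHSD livers, against 174, 178 and 167 FPKM in NCD livers, a log2 fold change of -0.45 ± 0.10 (SE, limma adjusted p = 0.0422, 0.154 without NCD 1). Rpl8, Rpl3 and Rps16 fell by 0.48, 0.62 and 0.64 on the log2 scale. The count of falls was 33 with equal medians and 33 after removal of trends with GC content and length, 1 when only the 6 libraries were fitted, 0 without HFHSD 1, HFHSD 2, NCD 1 or NCD 2, 5 without HFHSD 3 and 60 without NCD 3. The median stayed between -0.29 and -0.52 in the leave-one-out settings, and processed pseudogenes of this family can share reads.

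Of 25 genes of the unfolded protein response, which expands the folding capacity of the endoplasmic reticulum, 2 fell, 0 rose and 23 did not pass, against 1.91% of all genes that fell, and 21 had a lower value in HFHSD (median -0.35). Xbp1, its central transcription factor, had 81.2, 84.2 and 94.1 FPKM in HFHSD livers, against 163, 142 and 116 FPKM in NCD livers, a log2 fold change of -0.69 ± 0.17 (SE, limma adjusted p = 0.0567, 0.221 without NCD 1). Sdf2l1, a chaperone component, fell by 0.79 on the log2 scale (limma adjusted p = 0.0705, 0.245 without NCD 1). Hyou1, a large chaperone, had 10.5, 12.7 and 13.8 FPKM in HFHSD livers, against 43.0, 36.9 and 19.4 FPKM in NCD livers (limma adjusted p = 0.102). NCD 3 was the lowest NCD mouse for Xbp1, Sdf2l1 and Hyou1, and 9 of the 25 fell without it. Cytosolic heat shock genes split. Of 14 tested, 4 rose, 0 fell and 10 did not pass, against 2.80% of all genes that rose, with a median of -0.01. Hsph1, an exchange factor of HSP70, had 6.38, 6.48 and 7.07 FPKM in HFHSD livers, against 4.46, 3.94 and 4.66 FPKM in NCD livers, a log2 fold change of 0.60 ± 0.13 (SE, limma adjusted p = 0.0328, 0.138 without NCD 2). Dnaja1 and Dnajb1, cochaperones of HSP70, and Chordc1, a cochaperone of HSP90, rose by 0.73, 0.71 and 0.55 on the log2 scale, and 3 of the list fell without NCD 3.

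Plasma proteins and hepatokines went both ways, while 4.72% of all genes tested changed. Of 21 acute phase genes, 1 rose, 2 fell and 18 did not pass. Orm3, an orosomucoid, had 22.1, 30.0 and 18.2 FPKM in HFHSD livers, against 5.79, 7.23 and 3.53 FPKM in NCD livers, a log2 fold change of 2.09 ± 0.32 (SE, limma adjusted p = 0.0202, at most 0.0739 with any 1 library left out). Fgg, a chain of fibrinogen, had 2219, 2910 and 2884 FPKM in HFHSD livers, against 4952, 4943 and 3858 FPKM in NCD livers, a log2 fold change of -0.78 ± 0.20 (SE, limma adjusted p = 0.0631, 0.218 without NCD 2), and Fgb, another chain, fell by 0.78 on the log2 scale. Of 19 hepatokines, 2 rose, Tsku among them, and Fgf21 and Hamp2 fell. Hamp2, a relative of the iron hormone hepcidin, had 177, 175 and 316 FPKM in HFHSD livers, against 302, 372 and 406 FPKM in NCD livers, a log2 fold change of -0.74 ± 0.21 (SE, limma adjusted p = 0.0868, 0.264 without HFHSD 2). Among 16 clock genes, Cry1, a repressor of the clock, rose by 0.98 on the log2 scale (limma adjusted p = 0.0328, 0.120 without HFHSD 2). Of 20 genes of p53 targets and senescence, Glb1, the lysosomal beta-galactosidase, rose by 0.65 and Gadd45b, a stress-induced gene, fell by 1.16. Gadd45b averaged 0.785 FPKM in HFHSD and 1.91 FPKM in NCD livers, so it was tested only through the NCD livers. Of 8 tested cell cycle genes, Ccnd1, cyclin D1, rose by 0.56. The highest adjusted p in limma with 1 library left out was 0.224, 0.212 and 0.262 for these 3 genes. None of 77 nuclear genes of oxidative phosphorylation passed in limma (0 at an unadjusted p under 0.05), with a median of -0.03, and none of 14 hepatocyte identity genes did (3 at an unadjusted p under 0.05, all higher in HFHSD).

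The same diets were also given with CUR to other mice, which share no library with the HFHSD and NCD groups but share the estimate of the spread. Of the 10453 genes, 231 rose and 178 fell in HFHSD+CUR over NCD+CUR (3.91%). These counts were 19 and 13 without HFHSD+CUR 1, 219 and 178 without HFHSD+CUR 2, 117 and 72 without HFHSD+CUR 3, 5 and 0 without NCD+CUR 1 (by limma, with 500 lower at an unadjusted p under 0.05), 11 and 2 without NCD+CUR 2, and 294 and 344 without NCD+CUR 3, the chow library labelled 107 weeks. HFHSD+CUR 1 and HFHSD+CUR 3 had the highest Rn45s of the 12 libraries, and its part in these counts was not tested. Of the 493 genes that changed without CUR, 491 (99.6%) had the same sign with CUR, against 73.3% of all genes tested, and between 485 and 493 had it with any 1 CUR library left out. The call itself was shared by 135 rises and 64 falls, which is 40.4% of the 493 and 48.7% of the 409 calls with CUR, and 0 genes had opposite calls. The median log2 fold change with CUR was 0.53 over the genes that rose and -0.53 over those that fell, against 0.71 and -0.76 in the mice in which they were chosen.

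Single genes and lists can be set side by side. Tsku had a log2 fold change of 1.89 without and 1.92 with CUR, Abcc3 of 1.58 and 1.53, Cd36 of 1.51 and 1.29, and Lepr of -3.96 and -3.37. The interferon list had medians of 0.78 and 0.71, the ribosomal list of -0.43 and -0.34, and the endothelial list of -1.07 and -0.53 (-0.92 with CUR when HFHSD+CUR 3 was left out and -0.32 when HFHSD+CUR 1 was). Pecam1 had 1.37, 1.69 and 3.78 FPKM in HFHSD+CUR livers, against 5.46, 3.85 and 3.91 FPKM in NCD+CUR livers. HFHSD+CUR 3 was at the level of the NCD+CUR mice. Gadd45b had a log2 fold change of -1.16 without and -0.01 with CUR. No gene passed the test of a difference between the diet effects without and with CUR (0 at an adjusted p under 0.1 by limma, smallest adjusted p = 0.9999, and 144 at an unadjusted p under 0.05, of which 19 were among the 493). Without HFHSD 2 the count was 1. A larger or smaller diet effect with CUR was thus not detected for any single gene with 3 mice in each group.

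**Figure D5:**
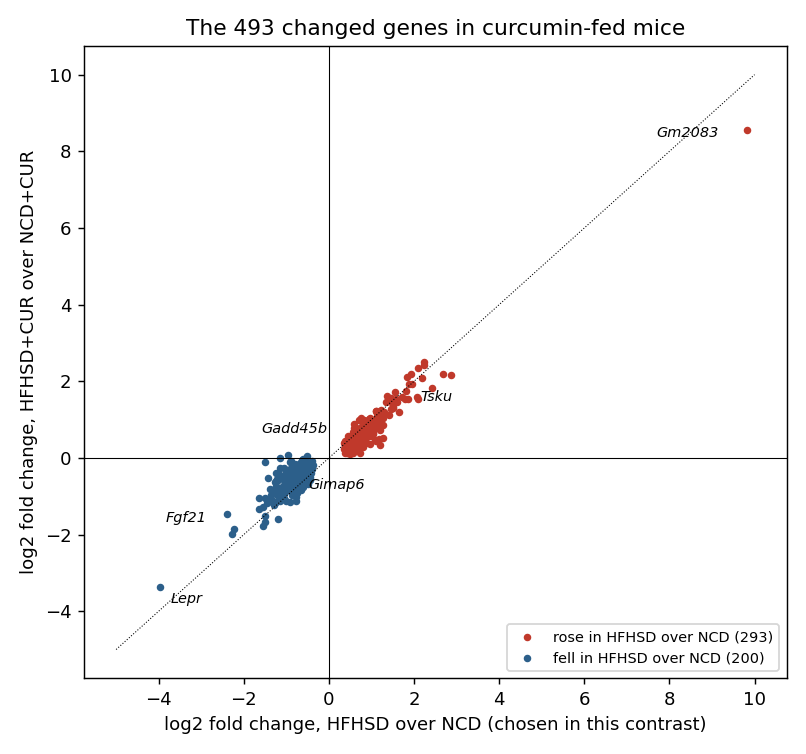
Log2 fold change in curcumin-fed mice (HFHSD+CUR over NCD+CUR, y axis) against that in mice without CUR (HFHSD over NCD, x axis, the contrast in which the genes were chosen), with red for the 293 genes that rose and blue for the 200 that fell. The dotted line marks equal values, and 491 of the 493 genes lie on the same side of 0 on both axes.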

How the data were processed

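Liver RNA of 12 mice was analysed, 3 in each of 4 groups. Libraries were made from poly(A) RNA with a stranded kit and read as pairs. The authors aligned them to mm10 with TopHat2 (2.0.13) and made FPKM values with Cuffdiff (2.2.1 in their processing notes), which divides fragments by transcript length and library size. The deposited FPKM table was used, and the authors' tables of curcumin comparisons, pathways and terms, which hold fold changes and p-values, were not used. No column lacked a sample.

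Values were taken as log2(FPKM + 0.1) and fitted in limma 3.58.1 (R 4.3.3) as 1 model of the 4 groups over 12 libraries, with trended and robust moderation. Genes were tested where the HFHSD and NCD libraries averaged 1 FPKM or more, and p-values were adjusted over all of them. Some genes met this minimum through 1 diet alone, where their mean could only be the higher one. Lepr, Lyve1 and Gadd45b did so through NCD, and Gm2083 and Cyp2b13 through HFHSD, among others. P-values set each contrast against a spread between mice that was pooled over the 4 groups and moderated across genes. The comparison, the 41 gene lists and the rule for named genes were chosen with earlier results of these data known. The rule took, among changed genes that averaged 5 FPKM or more and whose groups did not overlap, the 10 largest rises and the 10 largest falls, then from each list as many as 3 genes of smallest p, and 13 fixed genes. Other genes (Lepr, Alas1 and Epas1 among them, and further members of lists that changed) were named after their values were seen, and lists with no call are given mostly as counts. Some genes that the rule took are not reported here. GC content and transcript length came from GENCODE vM21 for 95.6% of tested genes, and trends were removed by loess with a span of 0.4. The model was tested on simulated data with known changes. No 2 libraries had identical values. Alternatives were other pseudocounts, filters, normalizations, covariates and thresholds, and leaving out libraries.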

Additional observations from a re-analysis of the deposited data

How the results depend on the processing

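The counts of genes higher and lower in HFHSD (293 and 200) were 291 and 127 with a minimum mean of 5 FPKM, 164 and 105 when only the 6 libraries were fitted, 483 and 407 with a block on the replicate number, 1077 and 953 with age as a covariate, 125 and 57 at an adjusted p under 0.05, and 492 and 424 without replicate 3 of both diets. Without the 2 libraries labelled 107 weeks, a setting chosen after seeing the data, they were 964 and 844. With 1 library left out they ran from 48 to 946 higher and from 12 to 784 lower. Pseudocounts of 1 and 0.01, no filter, a filter over 12 libraries, other normalizations, moderation without trend and robustness, and removal of GC and length trends kept both counts within 1.5 times. The cause of these differences was not tested. The count of genes whose diet effect differed with CUR was 0, and 1 without HFHSD 2, with 0 to 1 as the range with 1 library left out. The counts of genes higher and lower in HFHSD+CUR than in NCD+CUR (231 and 178) ran from 5 to 294 and from 0 to 344 with 1 CUR library left out, settings added after seeing the data. Deviations of same-numbered HFHSD and NCD libraries had correlations of 0.00633, 0.0688 and 0.259. HFHSD 2 and HFHSD 3 correlated best with the NCD library of their own number, and HFHSD 1 with NCD 2. The block was not taken as a pairing in the main fit, and whether same-numbered libraries share an effect was not settled. Over 21 settings, none of the 93 changed genes named reversed, 439 of their values lost the call and 1493 kept it, and 11 of them kept it in every setting. In genes whose groups did not overlap, leaving out libraries could not have reversed the direction. Among named genes that had not passed, 28 values changed sign. With quantile normalization these were Srebf1 (-0.074), Cidec (-0.0022) and Igf1 (-0.11), with equal medians Srebf1 (-0.00046) and Cidec (-0.015), with age as a covariate Fasn (0.13), Scd1 (0.088), Cidec (-0.44) and Igf1 (-0.041), after removal of GC and length trends Igf1 (-0.068), and without replicate 3 of both diets Cidec (-0.18) and Igf1 (-0.055). Without both libraries labelled 107 weeks they were Rn45s (0.15), Fasn (0.16), Scd1 (0.19), Cidec (-0.51) and Igf1 (-0.061). With 1 library left out their values ran from -0.055 to 0.18 for Srebf1, -0.46 to 0.19 for Scd1, -0.63 to 0.38 for Cidec, -0.061 to 0.13 for Igf1, -0.72 to 0.16 for Fasn and -1.91 to 0.15 for Rn45s. As no fragment counts per gene stand behind the FPKM used here, how far depth limits low genes is unknown. HFHSD 3 and NCD 3 had more reads than replicates 1 and 2 of their diets. Without a library, its group's lone pair is assumed to vary like the other groups.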

Other observations

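Further groups were chosen after their values were seen and carry no test as groups. Of 15 tested UDP-glucuronosyltransferases, which attach glucuronic acid to drugs and bilirubin, 5 rose, 0 fell and 10 did not pass, with a median log2 fold change of 0.80, against 0.03 for all genes tested (2.80% of which rose). Ugt2b36 had 381, 367 and 285 FPKM in HFHSD livers, against 171, 169 and 231 FPKM in NCD livers, a log2 fold change of 0.86 ± 0.18 (SE, limma adjusted p = 0.0328, 0.147 without NCD 1), and close paralogs of this family can share its reads. Of 14 aldehyde dehydrogenases, 3 rose and 0 fell (median 0.38). Aldh1a1, which oxidizes retinal, had 668, 853 and 678 FPKM in HFHSD livers, against 357, 322 and 447 FPKM in NCD livers, a log2 fold change of 0.97 ± 0.16 (SE, limma adjusted p = 0.0195, at most 0.0795 with any 1 library left out). Of 12 carboxylesterases, 2 rose (median 0.49), with Ces2c at 5.17, 7.11 and 6.11 FPKM in HFHSD livers, against 2.66, 2.20 and 2.61 FPKM in NCD livers, a log2 fold change of 1.26 ± 0.26 (SE, limma adjusted p = 0.0328, 0.140 without NCD 2). Of 6 sulfotransferases, 4 rose and 1 fell, with Sult1d1 at 53.8, 51.8 and 54.5 FPKM in HFHSD livers, against 34.6, 26.0 and 39.9 FPKM in NCD livers, a log2 fold change of 0.69 ± 0.15 (SE, limma adjusted p = 0.0353, 0.138 without NCD 2).

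Of 35 lysosomal hydrolases, 7 rose, 0 fell and 28 did not pass, against 2.80% of all genes that rose, with a median of 0.21. Of 9 guanylate-binding proteins, 4 rose (median 0.55), against the same 2.80% of all genes. Gbp10 had 6.44, 7.98 and 4.08 FPKM in HFHSD livers, against 0.354, 0.622 and 1.65 FPKM in NCD livers, a log2 fold change of 2.86 ± 0.47 (SE, limma adjusted p = 0.0211, at most 0.0992 with any 1 library left out), and Gbp6 rose by 1.45 on the log2 scale. Epas1 (HIF-2alpha, a transcription factor of the hypoxia response) had 35.4, 41.9 and 53.4 FPKM in HFHSD livers, against 81.4, 70.8 and 83.2 FPKM in NCD livers, a log2 fold change of -0.86 ± 0.15 (SE, limma adjusted p = 0.0211, at most 0.0836 with any 1 library left out). Both cold-inducible RNA-binding protein genes fell, by 0.66 for Cirbp and 0.62 for Rbm3 on the log2 scale (limma adjusted p = 0.0482 and 0.0328, 0.174 and 0.150 without NCD 1). Of 6 tested Gimap genes, 2 fell, against 1.91% of all genes that fell. Their median was -0.58 in mice without CUR and 0.00034 in mice with CUR, a difference that was not tested.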
